A study of Homo sapiens with 16 samples.

Results

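Chromatin accessibility was followed at the loci of 47 genes of cohesin, condensin and chromatin architecture. They were chosen by name, not by measured value, out of 19974 protein-coding loci, though earlier results of these data were known. A locus was the gene with 10 kb added at either end, and its value was the number of distinct ATAC-seq peaks with a summit inside it. That number was scaled so that every library had the same total over all protein-coding loci. Of the 47 loci, 39 averaged at least 3 scaled peaks over the 16 libraries and were tested, among 15118 loci tested in all. The other 8 (ESCO1, SMC2, NCAPG, HMGB2, HMGB3, HMGN1, HMGN3 and BANF1) were below that minimum and are given by their values.

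ATAC-seq maps open chromatin through the insertion of adapters by the Tn5 transposase. It was done here on IMR90, a line of human lung fibroblasts, infected with a retrovirus that encodes ΔB-RAF:ER, a B-RAF fusion switched on by 4-hydroxytamoxifen. There were 4 groups of 4 libraries: Raf-active normoxia, Raf-inactive normoxia, Raf-active hypoxia and Raf-inactive hypoxia, where hypoxia was 0.5% oxygen. The labels do not say how long the cells were treated, what the Raf-inactive cells received in place of the drug, or whether replicates were separate cultures, so p-values measure the spread between these libraries only. In a bulk assay, a peak called in fewer cells and a weaker peak in each cell cannot be told apart.

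Cohesin is a ring of SMC proteins that extrudes chromatin loops until it meets CTCF, and it also holds sister chromatids together. Condensin is a related SMC complex that compacts chromosomes in mitosis, and SMC5/6 acts in DNA repair. HMG proteins, nuclear matrix proteins and the chaperones of histone H3.3 shape chromatin between these complexes, and HIRA and ASF1A are known for their part in the heterochromatin foci of senescent human fibroblasts. Sustained Raf signalling drives normal fibroblasts into senescence.

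The lists held 169287 to 206757 distinct peaks per library. Read totals were not used here, and depth was judged by the background pileup recovered from the lists. It averaged 6.75 in Raf-active and 3.23 in Raf-inactive normoxia libraries, and 7.31 in Raf-active and 4.78 in Raf-inactive hypoxia libraries, so depth moved with Raf. The locus changes, and the regions gained or lost with Raf, were therefore also computed on lists matched in depth. Loci of 8 fibroblast marker genes held 68 to 82 listed peaks in every library. The marker sums given here are of listed peaks, not scaled, and Raf-active lists were the longer ones. Scaled means in normoxia were lower with Raf at COL1A2 (5.65 against 12.1), COL3A1, THY1, TWIST1 and VIM. They were alike at COL1A1 and higher at PDGFRA and PDGFRB. In hypoxia they were lower with Raf at all of these genes but PDGFRA. Loci of 5 epithelial, 3 endothelial and 4 blood cell marker genes also held peaks in every library, so these sums did not single out fibroblasts. The epithelial sums were 48 to 54 in Raf-active and 31 to 35 in Raf-inactive libraries. The endothelial sums were 57 to 62 in Raf-active and 39 to 40 in Raf-inactive normoxia libraries, and 54 to 56 in Raf-active and 34 to 40 in Raf-inactive hypoxia libraries. The blood cell sums were 23 to 29 in Raf-active and 18 to 23 in Raf-inactive normoxia libraries, and 32 to 35 in Raf-active and 20 to 21 in Raf-inactive hypoxia libraries. The part of other cell types in the results was not tested.

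The start sites of these genes were open in every group. RefSeq promoter windows, 250 bases before to 50 after an annotated start in GRCh38.p14, were found for 40 of the 47 genes, 54 windows in all. The genes without an entry were DAXX, NCAPH2, ATRX, RAD21, ESCO2, HMGB2 and ESCO1. A peak summit lay within 1 kb of the start in 16 of 16 libraries for 49 windows, and each of the 40 genes had at least 1 such window. For 22 of the 40 genes the best window's peak was above the 90th percentile of its own list by −log10 p in every library. CTCF, whose product anchors loops, had a start-site peak in all 16 libraries, at the 98.2 percentile or higher. The peak at NCAPG2, a condensin II subunit, was at the 99.0 percentile or higher. None of the 54 windows (0) overlapped a region gained or lost with Raf in either oxygen state. Such a region needs a group with no peak, so for the 49 windows this was largely set by definition. It does not show that the changes given further on lay away from these starts, and a change in peak strength would be missed. Genes without an entry were not covered. Of the regions gained or lost in both Raf comparisons, 1 gained and 3 lost lay within 1 kb of an end of the gene.

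The promoters of 4 genes with large locus changes and of 2 SATB1 starts are shown. They place start sites with an unchanging peak call beside changing loci. PDS5B and SMC4 lost peaks with Raf, and HIRA and YY1 gained them, while all 4 kept a start-site peak in 16 of 16 libraries. SATB1, which encodes a matrix-attachment protein, has several annotated starts, of which start 1 had a peak in 16 of 16 libraries and start 3 in 0 of 16. Only the call was constant. The median percentile at SMC4 was 87.7 in Raf-active and 97.1 in Raf-inactive normoxia libraries, and 84.2 and 97.3 in hypoxia. At SATB1 start 1 it was 68.4 and 83.3 in normoxia, and 79.8 and 89.5 in hypoxia. At YY1 it was 99.3 and 97.6, and 98.9 and 95.3. PDS5B and HIRA ranks also differed in the direction of their loci, but in normoxia their folds went the other way. PDS5B folds were 14.822 to 17.321 in Raf-active and 12.05 to 13.565 in Raf-inactive normoxia libraries. HIRA folds were 14.023 to 14.118 and 16.16 to 17.177. At YY1 the folds ran higher with Raf, and at SMC4 and SATB1 start 1 they overlapped. Ranks and folds depend on depth and were not tested, so they do not show that start-site strength moved with the locus. Sequences are RefSeq's, read 5′ to 3′ on the gene's strand. Capitals mark CCCTC or GAGGG, the letters that CTCF is named after, on either strand. They also mark TTTGAA or TTCAAA, the letters of the cell-cycle homology region. The binding motif of CTCF itself was not searched.
PDS5B, chr13:32586202-32586501, plus strand: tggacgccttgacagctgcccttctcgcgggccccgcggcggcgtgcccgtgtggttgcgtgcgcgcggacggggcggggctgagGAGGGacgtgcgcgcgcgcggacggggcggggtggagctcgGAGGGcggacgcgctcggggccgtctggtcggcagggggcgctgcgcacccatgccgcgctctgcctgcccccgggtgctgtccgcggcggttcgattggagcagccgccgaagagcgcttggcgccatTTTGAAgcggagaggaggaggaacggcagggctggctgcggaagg
SMC4, chr3:160399400-160399699, plus strand: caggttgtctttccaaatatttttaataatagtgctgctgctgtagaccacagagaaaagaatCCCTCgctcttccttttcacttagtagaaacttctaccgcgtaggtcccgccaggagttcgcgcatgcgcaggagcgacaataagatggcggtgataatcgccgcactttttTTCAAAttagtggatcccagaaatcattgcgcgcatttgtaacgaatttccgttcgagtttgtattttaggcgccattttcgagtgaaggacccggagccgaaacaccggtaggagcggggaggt
HIRA, chr22:19431684-19431983, minus strand: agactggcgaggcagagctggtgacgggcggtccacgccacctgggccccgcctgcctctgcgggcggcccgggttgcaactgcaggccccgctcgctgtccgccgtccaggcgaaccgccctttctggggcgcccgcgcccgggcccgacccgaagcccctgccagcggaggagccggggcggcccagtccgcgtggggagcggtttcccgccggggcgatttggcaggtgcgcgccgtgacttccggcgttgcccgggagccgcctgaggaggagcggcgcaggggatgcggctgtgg
YY1, chr14:100238894-100239193, plus strand: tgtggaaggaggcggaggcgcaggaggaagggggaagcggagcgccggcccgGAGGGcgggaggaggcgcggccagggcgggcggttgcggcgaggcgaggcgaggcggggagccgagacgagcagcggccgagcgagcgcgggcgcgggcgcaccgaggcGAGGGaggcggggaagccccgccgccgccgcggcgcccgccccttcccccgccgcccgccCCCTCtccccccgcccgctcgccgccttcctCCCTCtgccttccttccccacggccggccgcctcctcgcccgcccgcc
SATB1, start 1, chr3:18445543-18445842, minus strand: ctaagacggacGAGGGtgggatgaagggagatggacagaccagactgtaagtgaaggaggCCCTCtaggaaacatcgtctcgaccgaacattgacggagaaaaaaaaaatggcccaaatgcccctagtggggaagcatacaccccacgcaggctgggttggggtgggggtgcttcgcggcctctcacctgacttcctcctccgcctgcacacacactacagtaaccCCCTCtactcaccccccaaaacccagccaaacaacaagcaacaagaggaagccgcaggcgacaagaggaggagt
SATB1, start 3, chr3:18438687-18438986, minus strand: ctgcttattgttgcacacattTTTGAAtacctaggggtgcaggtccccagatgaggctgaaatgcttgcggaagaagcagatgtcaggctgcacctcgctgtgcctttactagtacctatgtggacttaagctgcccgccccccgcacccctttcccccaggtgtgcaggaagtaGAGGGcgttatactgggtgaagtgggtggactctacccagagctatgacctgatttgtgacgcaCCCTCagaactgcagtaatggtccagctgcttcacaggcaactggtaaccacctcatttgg
CCCTC or its reverse complement was in 43 of the 54 windows (79.6%), against 76.6% of 22132 windows of all protein-coding genes. The letters TGANTCA, of the AP-1 type, were in 0 of 54 windows, against 6.15% of all. TTTGAA or its reverse complement, searched after values had been seen, was in 14 windows (25.9%), against 12.4% of all. Windows of 1 gene can overlap, and the median G+C content was 65.3% in the 54 windows and 62.3% in all. A match is a description of letters only.

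Raf activation moved peaks at these loci in both directions. In normoxia 10 of the 39 tested loci were higher in Raf-active cells and 10 were lower, at an adjusted p below 0.05 in limma's moderated test. Over all 15118 loci, 37.1% were higher and 25.9% lower in that comparison. In hypoxia 8 of 39 were higher and 15 lower, against 33.5% higher and 26.6% lower over all loci. The median log2 change of the 39 was 0.09 in normoxia, where all loci had 0.10, and −0.14 in hypoxia, where all loci had 0.05. The summed peaks of the 47 loci made up 0.229% ± 0.003 of all locus peaks in Raf-active hypoxia libraries, against 0.253% ± 0.005 in Raf-inactive hypoxia libraries (SD, n = 4 each). In normoxia the share was 0.253% ± 0.004 in Raf-active and 0.250% ± 0.003 in Raf-inactive libraries. The 4 Raf-active hypoxia libraries, at 0.225% to 0.232%, were below the other 12, which began at 0.246%. The share was computed on the lists as deposited only.

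These splits depended on scaling. Without it, 20 loci were higher and 8 lower with Raf in normoxia, and 11 higher and 10 lower in hypoxia, while the median of all loci moved to 0.33 and 0.29. Over all loci, 56.7% were then higher and 16.3% lower in normoxia, and 53.4% higher and 14.7% lower in hypoxia. On lists matched in depth 10 were higher and 13 lower in normoxia, and 8 higher and 17 lower in hypoxia, among 38 loci. The shares over all loci were 38.1% higher and 25.1% lower in normoxia, and 34.0% and 25.0% in hypoxia. With only peaks of at least 5-fold enrichment, 6 were higher and 16 lower in normoxia, and 7 higher and 16 lower in hypoxia, among 33 loci. Over all loci that was 34.7% higher and 26.3% lower in normoxia, and 31.6% and 25.3% in hypoxia. Of the 10 loci higher in normoxia, 9 could be tested at matched depth and all 9 passed again, but with the 5-fold minimum only 4 of 8 did. Of the 10 that were lower, 9 of 10 passed again at matched depth and 8 of 9 with the 5-fold minimum.

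**Figure D1:**
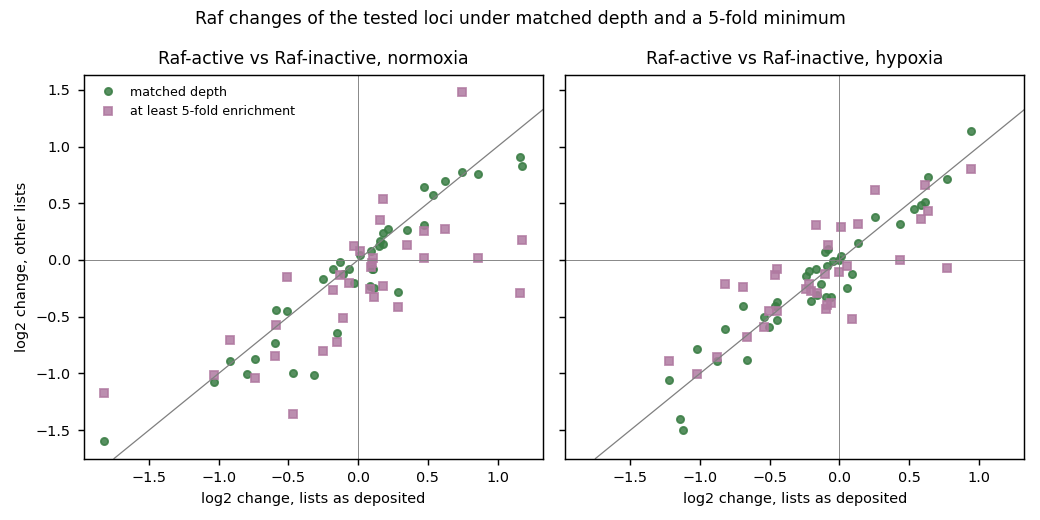
Log2 change with Raf at the tested loci on lists as deposited (horizontal) against lists matched in depth (green) and lists cut to at least 5-fold enrichment (purple), with the line of equality in grey. Green points keep the sign of the strongest changes but leave the line in places, as at HIRA in normoxia (1.18 and 0.83) and SMC4 in hypoxia (−1.12 and −1.50). Purple points of the strongest rises in normoxia fall to near or below 0.

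**Figure D2:**
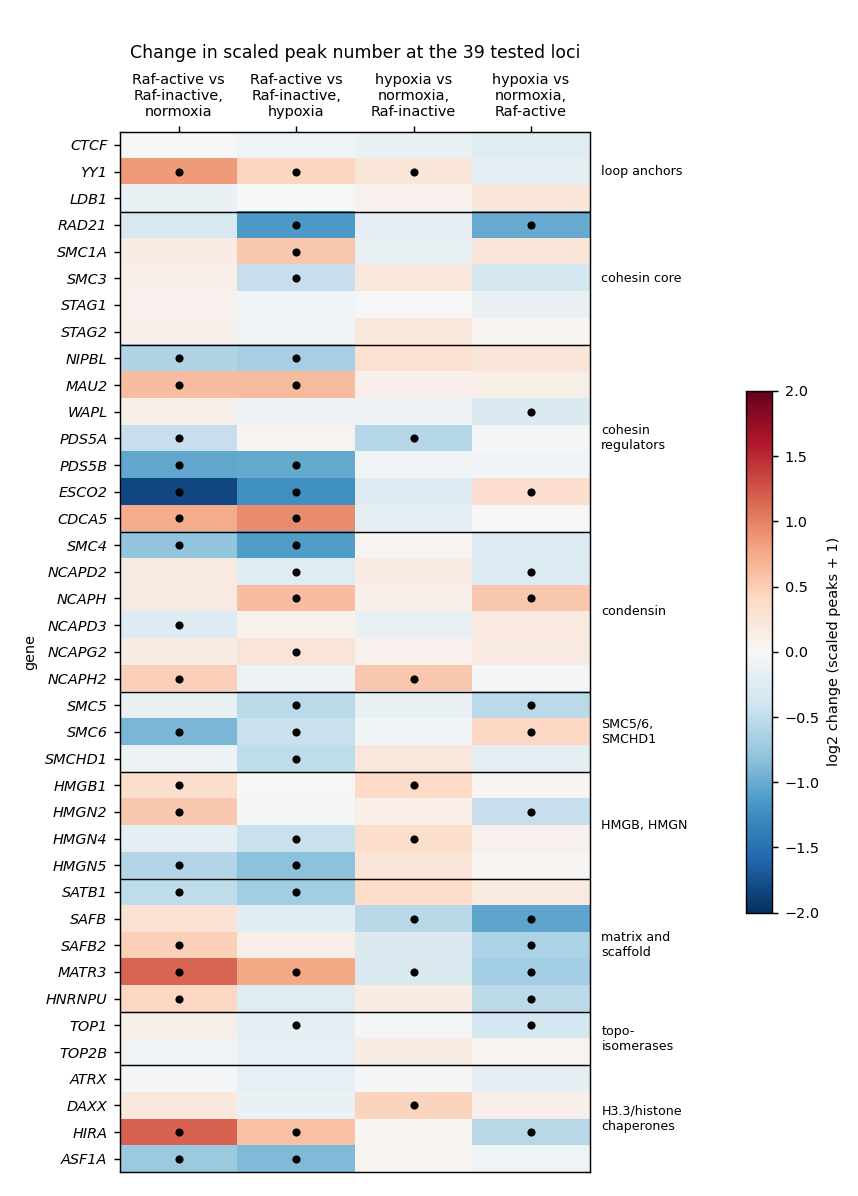
Log2 change of scaled peaks plus 1 at the 39 tested loci (rows, grouped by role) in the 4 comparisons (columns), with red higher and blue lower in the group named first and dots at loci with an adjusted p below 0.05. ESCO2 has the deepest fall, −1.82 with Raf in normoxia, and HIRA and MATR3 the strongest rises, 1.18 and 1.16.

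Hypoxia alone moved fewer loci. In Raf-inactive cells 5 of 39 were higher in hypoxia and 3 lower, where 6.01% and 6.79% of all loci were. In Raf-active cells 3 were higher and 11 lower, where 13.0% and 14.1% of all loci were. The Raf change differed between oxygen states at 11 of 39 loci, more positive in hypoxia at 3 and more negative at 8, where 9.16% of all loci were called in each direction. The median of that difference was −0.20 over the 39 and −0.01 over all loci. At matched depth it was −0.12 over 38 members and −0.01 over all loci. With the 5-fold minimum it turned to 0.13 over 33 members, with −0.02 over all loci. In Raf-active cells 3 were higher and 7 lower with hypoxia at matched depth, against 12.4% and 12.5% of all loci. With the 5-fold minimum 5 were higher and 1 lower there, against 13.5% and 13.3%. Each group serves in 2 comparisons, so the comparisons are not independent. Of the 39, 5 rose (12.8%, against 25.1% of all loci) and 8 fell (20.5%, against 19.0%) in both Raf comparisons, and 6 passed in none of the 4 comparisons (15.4%, against 19.0%).

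Among the loop anchors, YY1 rose with Raf, and CTCF and LDB1 did not pass in any comparison on the lists as deposited. YY1, a zinc finger protein that joins enhancers to promoters, had 16, 13, 12 and 15 peaks listed in Raf-active and 6, 6, 6 and 6 in Raf-inactive normoxia libraries. In hypoxia it had 12, 11, 13 and 11 in Raf-active and 7, 7, 7 and 7 in Raf-inactive libraries. Raf-active libraries were above Raf-inactive ones in both oxygen states, with no overlap. The log2 change was 0.86 ± 0.07 in normoxia (SE, adjusted p = 4.26e-08) and 0.43 ± 0.07 in hypoxia (adjusted p = 0.000106), and these differed by −0.43 (adjusted p = 0.0106). With the 5-fold minimum the Raf changes were 0.02 and −0.00 and neither was called. YY1 was also higher in hypoxia than in normoxia in Raf-inactive cells (0.24, adjusted p = 0.0406), a call that was lost without any 1 of the 8 libraries. It was also not called in the gene body plus 2 kb, and the YY1 window reaches SLC25A29. CTCF had 15, 13, 11 and 14 peaks listed in Raf-active and 9, 11, 11 and 13 in Raf-inactive normoxia libraries. Under hypoxia the numbers were 8, 12, 13 and 10 in Raf-active and 11, 9, 7 and 11 in Raf-inactive libraries. The CTCF groups overlapped in each comparison, and the log2 change with Raf was 0.01 ± 0.15 in normoxia and −0.08 ± 0.15 in hypoxia. LDB1, the dimerizing cofactor of enhancer loops, had changes of −0.13 and 0.01. With the 5-fold minimum LDB1 was called lower with hypoxia in Raf-inactive cells (−0.59).

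In the cohesin core, none of the 5 loci (0) passed with Raf in normoxia, and in hypoxia RAD21 and SMC3 fell and SMC1A rose. The shares over all loci were 37.1% higher and 25.9% lower in normoxia, and 33.5% and 26.6% in hypoxia. RAD21 encodes the kleisin that closes the ring. It had 6, 8, 6 and 7 peaks listed in Raf-active and 7, 6, 8 and 8 in Raf-inactive normoxia libraries. At 0.5% oxygen there were 3, 2, 2 and 4 in Raf-active and 6, 7, 6 and 5 in Raf-inactive libraries. The 4 Raf-active hypoxia libraries were below the other 12. The Raf change was −1.14 ± 0.15 in hypoxia (adjusted p = 4.51e-06) and −0.32 ± 0.15 in normoxia (adjusted p = 0.0679), and the difference of −0.82 passed (adjusted p = 0.0113). At matched depth, however, RAD21 also fell in normoxia, by 1.02 on the log2 scale, and the difference between oxygen states was −0.39 and no longer passed. Within Raf-active cells RAD21 was lower in hypoxia than in normoxia, with a change of −1.02 ± 0.15 (adjusted p = 8.74e-05), or −0.49 at matched depth (adjusted p = 0.049).

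SMC3, an ATPase arm of the ring, had 10, 10, 5 and 10 peaks listed in Raf-active and 7, 6, 6 and 7 in Raf-inactive normoxia libraries. The hypoxia numbers were 7, 5, 7 and 6 in Raf-active and 9, 8, 7 and 6 in Raf-inactive libraries. Replicate 3 of Raf-active normoxia was low beside its group, with 4.74 scaled peaks against 8.83 to 8.92 in the other 3. SMC3 fell with Raf in hypoxia (−0.46 ± 0.16, adjusted p = 0.0179), while its normoxia value was 0.11 ± 0.16. Without that replicate the normoxia value was 0.30 and passed. The hypoxia call was lost without Raf-inactive replicate 1 or Raf-active replicate 2, at −0.38 each, and with the 5-fold minimum, at −0.13. SMC1A, the other ATPase arm, rose with Raf in hypoxia by 0.54 ± 0.13 (adjusted p = 0.00169), and the groups did not overlap. STAG1 and STAG2, the alternative HEAT-repeat subunits, had Raf changes between −0.09 and 0.09 and passed in none of the 4 on the lists as deposited. STAG1 was called lower with Raf at matched depth (−0.23 in normoxia and −0.33 in hypoxia) and with the 5-fold minimum (−0.26 and −0.38). STAG2 was called lower in hypoxia with the 5-fold minimum (−0.40). The 436 kb locus of STAG1 held 90 merged regions, of which 9 were gained and 6 lost with Raf in both oxygen states.

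Among the 7 tested cohesin regulators, 4 fell and 2 rose with Raf in normoxia, and 3 fell and 2 rose in hypoxia. Over all loci 25.9% were lower and 37.1% higher in normoxia, and 26.6% lower and 33.5% higher in hypoxia. ESCO2, the acetyltransferase that locks cohesin on replicated DNA, had 2, 2, 2 and 2 peaks listed in Raf-active and 8, 9, 8 and 8 in Raf-inactive normoxia libraries. In hypoxia it had 3, 2, 3 and 3 in Raf-active and 6, 6, 7 and 7 in Raf-inactive libraries. Every Raf-active library was below every Raf-inactive one. The log2 change was −1.82 ± 0.09 in normoxia (adjusted p = 7.22e-11) and −1.23 ± 0.09 in hypoxia (adjusted p = 1.03e-08), and both passed at matched depth and with the 5-fold minimum, where the normoxia change was −1.17. In Raf-active cells ESCO2 was higher in hypoxia than in normoxia by 0.34 ± 0.09 (adjusted p = 0.0115), but by 0.09 and uncalled with the 5-fold minimum. The difference between the Raf changes, 0.59, passed (adjusted p = 0.00495), but it was 0.04 in the gene body plus 2 kb and 0.28 with the 5-fold minimum, not called in either. The ESCO2 window takes in parts of CCDC25 and PBK, and of its 3 regions lost in both Raf comparisons 2 lay in the ESCO2 gene body.

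PDS5B, which controls the release of cohesin together with WAPL, had 9, 9, 10 and 12 peaks listed in Raf-active and 18, 17, 17 and 20 in Raf-inactive normoxia libraries. Under hypoxia the numbers were 9, 9, 9 and 10 in Raf-active and 16, 16, 16 and 18 in Raf-inactive libraries. The groups did not overlap, and the fall was alike in size in both: −1.03 ± 0.09 in normoxia (adjusted p = 3.3e-08) and −1.02 ± 0.09 in hypoxia (adjusted p = 5.46e-08), a difference of 0.02 ± 0.12. All 4 regions lost in both comparisons lay inside the gene, at chr13:32594261-32594716, chr13:32656471-32657197, chr13:32659578-32660122 and chr13:32676220-32676651 (hg38). Its paralog PDS5A had 14, 17, 11 and 16 peaks listed in Raf-active and 15, 19, 19 and 15 in Raf-inactive normoxia libraries. At 0.5% oxygen there were 12, 12, 16 and 14 in Raf-active and 11, 12, 9 and 11 in Raf-inactive libraries. PDS5A was lower with Raf in normoxia (−0.47 ± 0.12, adjusted p = 0.00319), and lower with hypoxia in Raf-inactive cells (−0.56 ± 0.12, adjusted p = 0.0067). Its Raf change in hypoxia was 0.06 ± 0.12. The normoxia change was −0.22 and not called without scaling, −0.998 at matched depth and −1.35 with the 5-fold minimum, both called. The difference of 0.52 passed narrowly (adjusted p = 0.0446) and was lost under 9 of 16 omissions of 1 library, and with the 5-fold minimum it was 1.298 and called.

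NIPBL and MAU2 form the loader that puts cohesin on DNA, and they moved in opposite directions. NIPBL averaged 9.24 ± 0.44 scaled peaks in Raf-active and 14.6 ± 2.0 in Raf-inactive normoxia libraries (SD, n = 4 each), a change of −0.60, and its change in hypoxia was −0.66. MAU2 had 12, 11, 11 and 9 peaks listed in Raf-active and 5, 5, 6 and 6 in Raf-inactive normoxia libraries. The hypoxia numbers were 11, 11, 11 and 12 in Raf-active and 6, 5, 7 and 5 in Raf-inactive libraries. Raf-active MAU2 libraries were higher throughout, by 0.62 ± 0.11 in normoxia (adjusted p = 8.49e-05) and 0.64 ± 0.11 in hypoxia (adjusted p = 8.04e-05). These were 0.27 and 0.43 with the 5-fold minimum, both called. CDCA5, or sororin, which protects cohesin from WAPL, had 9, 10, 9 and 9 peaks listed in Raf-active and 4, 4, 5 and 4 in Raf-inactive normoxia libraries. In hypoxia it had 9, 9, 9 and 9 in Raf-active and 3, 4, 3 and 4 in Raf-inactive libraries. That was a rise of 0.74 ± 0.09 (adjusted p = 2.03e-06) and 0.94 ± 0.09 (adjusted p = 1.76e-07), with no overlap, and the normoxia rise was 1.48 with the 5-fold minimum. The CDCA5 window reaches 5 neighbouring genes, and 1 of its 4 regions gained in both comparisons lay in NAALADL1. WAPL, the release factor, was lower in hypoxia than in normoxia in Raf-active cells (−0.29, adjusted p = 0.0112) and did not pass with Raf on the lists as deposited. In hypoxia it was called lower with Raf at matched depth (−0.33) and with the 5-fold minimum (−0.43). ESCO1, not tested, had 1 or 2 peaks listed in every library.

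**Figure D3:**
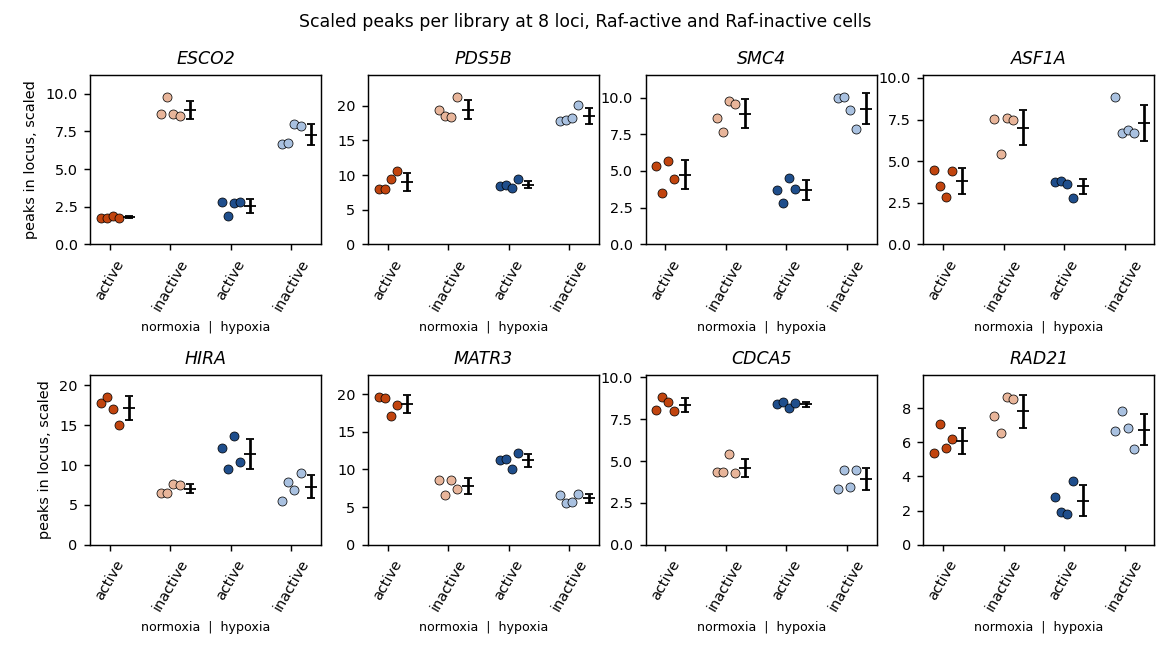
Scaled peaks in each library at 8 loci (dots), with the mean and SD of 4 libraries to the right of each group; Raf-active stands left of Raf-inactive within each oxygen state. The Raf-active dots lie below the Raf-inactive ones at ESCO2, PDS5B, SMC4 and ASF1A and above them at HIRA, MATR3 and CDCA5, while RAD21 is low only in Raf-active hypoxia.

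Condensin loci were mixed. SMC4, an ATPase subunit shared by condensin I and II, had 6, 4, 6 and 5 peaks listed in Raf-active and 8, 7, 9 and 9 in Raf-inactive normoxia libraries. Under hypoxia the numbers were 4, 3, 5 and 4 in Raf-active and 9, 9, 8 and 7 in Raf-inactive libraries. It fell with Raf, with changes of −0.79 ± 0.13 in normoxia (adjusted p = 5.05e-05) and −1.12 ± 0.13 in hypoxia (adjusted p = 1.45e-06), with no overlap. NCAPH, the kleisin of condensin I, had 8, 9, 7 and 9 peaks listed in Raf-active and 6, 7, 6 and 5 in Raf-inactive normoxia libraries. At 0.5% oxygen there were 12, 12, 11 and 13 in Raf-active and 6, 5, 7 and 7 in Raf-inactive libraries. The Raf-active hypoxia libraries were above the other 12. NCAPH rose with Raf in hypoxia by 0.61 ± 0.11 (adjusted p = 0.000141) and had 0.18 ± 0.11 in normoxia, a difference of 0.44 that did not pass (adjusted p = 0.0586). The normoxia change was 0.53 and called with the 5-fold minimum. Within Raf-active cells it was higher in hypoxia than in normoxia by 0.54 (adjusted p = 0.00164), but by 0.21 and uncalled with the 5-fold minimum.

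NCAPH2, the kleisin of condensin II, had 8, 8, 9 and 8 peaks listed in Raf-active and 4, 4, 5 and 6 in Raf-inactive normoxia libraries. The hypoxia numbers were 8, 7, 8 and 8 in Raf-active and 8, 6, 7 and 7 in Raf-inactive libraries. The Raf-inactive normoxia group was the low one. The locus rose with Raf in normoxia (0.48 ± 0.11, adjusted p = 0.00089) and with hypoxia in Raf-inactive cells (0.54 ± 0.11, adjusted p = 0.00352). Its Raf change in hypoxia was −0.10, and the difference of −0.58 passed (adjusted p = 0.0136). With the 5-fold minimum these 3 values were 0.02, 0.26 and −0.14, and none was called. The rise with hypoxia in Raf-inactive cells was also not called in the gene body plus 2 kb. The NCAPH2 window reaches 5 other genes. Among the other tested condensin genes, NCAPG2 rose with Raf in hypoxia (0.26), NCAPD2 fell there (−0.24) and NCAPD3 was lower in normoxia (−0.25) with overlapping groups. At matched depth the NCAPD2 and NCAPD3 changes were −0.14 and −0.17 and not called. NCAPD3, with the 5-fold minimum, was −0.80 in normoxia and −0.52 in hypoxia and NCAPG2 0.35 and 0.61, all 4 called. NCAPG and SMC2 were not tested. NCAPG had 1 or 2 peaks listed in Raf-active and 3 to 5 in Raf-inactive libraries of both oxygen states, and SMC2 had 1 to 3 in all.

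All 3 loci of SMC5/6 and SMCHD1, the SMC-like protein of silenced chromatin, fell with Raf in hypoxia, where 26.6% of all loci did. On the lists as deposited SMC6 was the 1 that passed in normoxia, where 25.9% of all loci were lower. SMC6 had 6, 6, 5 and 5 peaks listed in Raf-active and 10, 8, 10 and 10 in Raf-inactive normoxia libraries. In hypoxia it had 9, 6, 7 and 8 in Raf-active and 9, 9, 9 and 8 in Raf-inactive libraries. After scaling, Raf-active libraries were lower in both oxygen states without overlap, with changes of −0.92 ± 0.10 (adjusted p = 8.09e-07) and −0.45 ± 0.10 (adjusted p = 0.00122). Without scaling the hypoxia change was −0.21 and not called. SMC6 was higher in hypoxia within Raf-active cells by 0.42 ± 0.10 (adjusted p = 0.00605), and by 0.35 and uncalled with the 5-fold minimum. SMC5 averaged 8.18 ± 1.3 scaled peaks in Raf-active and 12.3 ± 1.8 in Raf-inactive hypoxia libraries (SD, n = 4 each), a change of −0.54. SMCHD1 changed by −0.51 there. In normoxia SMC5 was called lower at matched depth (−0.65) and with the 5-fold minimum (−0.72), and SMCHD1 with the 5-fold minimum (−0.52).

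Of the HMG proteins, which bend DNA (HMGB) or bind nucleosomes (HMGN), HMGB1 and HMGN2 were higher with Raf in normoxia, HMGN5 was lower with Raf in both oxygen states and HMGN4 lower in hypoxia. HMGB1 had 21, 19, 14 and 18 peaks listed in Raf-active and 13, 10, 11 and 12 in Raf-inactive normoxia libraries. Under hypoxia the numbers were 17, 18, 19 and 17 in Raf-active and 15, 14, 15 and 15 in Raf-inactive libraries. Once scaled, the Raf groups overlapped in both oxygen states, with a change of 0.35 ± 0.09 in normoxia (adjusted p = 0.00341) and −0.00 ± 0.09 in hypoxia. With the 5-fold minimum the normoxia value was 0.14 and not called. Without scaling the hypoxia value was 0.25 and called. HMGB1 also rose with hypoxia in Raf-inactive cells, by 0.39 ± 0.09 (adjusted p = 0.0117), and those groups did not overlap. That rise was not called in the gene body plus 2 kb, and the HMGB1 window reaches USPL1.

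HMGB2, whose loss marks senescent fibroblasts, was not tested. It had 4, 4, 4 and 5 peaks listed in Raf-active and 2, 2, 2 and 2 in Raf-inactive normoxia libraries. At 0.5% oxygen there were 3, 3, 3 and 3 in Raf-active and 2, 2, 2 and 2 in Raf-inactive libraries. Raf-active libraries thus listed more peaks in the HMGB2 window, which also reaches GALNT7, in both oxygen states. In a fit with no minimum peak number the Raf changes of HMGB2 were 0.61 in normoxia and 0.23 in hypoxia. Most groups listed the same small whole number in every library, so the spread in that fit says little. Raf-active libraries were also the deeper ones, and no value at matched depth is given for HMGB2. HMGN5 fell, with −0.59 in normoxia and −0.82 in hypoxia, the second of which was −0.21 and still called with the 5-fold minimum. HMGN4 was −0.45 in hypoxia, and −0.08 and not called with the 5-fold minimum. HMGN2 rose by 0.54 in normoxia, and its Raf change in hypoxia differed from that by −0.58 (adjusted p = 0.0156). Of the untested loci, HMGN3 had 2 peaks listed in every Raf-active library, against 4 or 5 in Raf-inactive normoxia and 3 in Raf-inactive hypoxia libraries. HMGB3 had 1 to 6 and HMGN1 1 to 4 over all libraries.

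The matrix and scaffold loci split, with MATR3 rising and SATB1 falling. MATR3 encodes matrin 3, an RNA-binding protein of the nuclear matrix. It had 22, 22, 18 and 21 peaks listed in Raf-active and 8, 6, 8 and 7 in Raf-inactive normoxia libraries. The hypoxia numbers were 12, 12, 11 and 13 in Raf-active and 6, 5, 5 and 6 in Raf-inactive libraries. The groups were apart in both oxygen states, by 1.16 ± 0.09 (adjusted p = 1.47e-08) and 0.77 ± 0.09 (adjusted p = 2.37e-06). With the 5-fold minimum, however, MATR3 had a Raf change of −0.29 in normoxia, which was called, and −0.07 in hypoxia, which was not. The rise was not seen among peaks of at least 5-fold enrichment. At MATR3 7 regions were gained in normoxia. SATB1, which folds chromatin at matrix attachment regions, had 4, 3, 3 and 3 peaks listed in Raf-active and 4, 5, 4 and 4 in Raf-inactive normoxia libraries. In hypoxia it had 5, 3, 4 and 3 in Raf-active and 5, 5, 6 and 6 in Raf-inactive libraries. After scaling these groups did not overlap, at −0.51 ± 0.12 in normoxia (adjusted p = 0.0017) and −0.69 ± 0.12 in hypoxia (adjusted p = 0.000138). The normoxia call was lost with the 5-fold minimum, at −0.15, and the hypoxia change was −0.24 there. At matched depth the hypoxia change was −0.40.

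SAFB and SAFB2, scaffold attachment factors, are neighbours whose windows overlap and share peaks. SAFB had 10, 14, 9 and 9 peaks listed in Raf-active and 8, 8, 7 and 5 in Raf-inactive normoxia libraries. Under hypoxia the numbers were 4, 5, 4 and 4 in Raf-active and 5, 4, 4 and 4 in Raf-inactive libraries. Hypoxia libraries were the low ones: the hypoxia change was −1.06 ± 0.14 in Raf-active cells (adjusted p = 4.13e-05) and −0.55 ± 0.14 in Raf-inactive cells (adjusted p = 0.0161), where groups overlapped. With the 5-fold minimum these were −0.22 and −0.42, and neither was called. HNRNPU, scaffold attachment factor A, had 5, 5, 5 and 4 peaks listed in Raf-active and 3, 2, 3 and 3 in Raf-inactive normoxia libraries. At 0.5% oxygen there were 4, 2, 4 and 2 in Raf-active and 3, 3, 3 and 3 in Raf-inactive libraries. It was higher with Raf in normoxia by 0.42 ± 0.15 (adjusted p = 0.0235), a call lost without Raf-active replicate 1 (0.40) or 3 (0.38) or Raf-inactive replicate 2 (0.32). The Raf change in hypoxia differed from that by −0.67 (adjusted p = 0.0399). In Raf-active cells 4 of the 5 loci of this group were lower in hypoxia than in normoxia, namely SAFB, SAFB2, MATR3 and HNRNPU, where 14.1% of all loci were. At matched depth the changes of SAFB, SAFB2 and MATR3 were −0.39, −0.38 and −0.42, all called, and HNRNPU was not tested. SAFB (−0.22) and SAFB2 (−0.01) were not called with the 5-fold minimum, and MATR3 was called higher there (0.36). The HNRNPU call was lost under 3 of 8 omissions of 1 library.

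Among the H3.3 and histone chaperones, HIRA rose and ASF1A fell with Raf. HIRA, which deposits H3.3, had 20, 21, 18 and 17 peaks listed in Raf-active and 6, 6, 7 and 7 in Raf-inactive normoxia libraries. The hypoxia numbers were 13, 10, 15 and 11 in Raf-active and 5, 7, 6 and 8 in Raf-inactive libraries. Raf-active libraries were the higher ones, by 1.18 ± 0.12 in normoxia (adjusted p = 4.18e-07) and 0.59 ± 0.12 in hypoxia (adjusted p = 0.000645), a difference of −0.59 (adjusted p = 0.0271). With the 5-fold minimum the rises were 0.18 and 0.36, both called, and the difference turned to 0.18. At matched depth the difference was −0.34 and not called. ASF1A, the chaperone that hands H3-H4 to HIRA, had 5, 4, 3 and 5 peaks listed in Raf-active and 7, 5, 7 and 7 in Raf-inactive normoxia libraries. In hypoxia it had 4, 4, 4 and 3 in Raf-active and 8, 6, 6 and 6 in Raf-inactive libraries. The groups did not overlap, with changes of −0.74 ± 0.13 (adjusted p = 9.82e-05) and −0.88 ± 0.13 (adjusted p = 1.95e-05). ASF1A overlaps MCM9, so its 2 regions lost in both comparisons lie in both gene bodies.

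DAXX, which with ATRX places H3.3 at repeats, had 6, 7, 6 and 8 peaks listed in Raf-active and 6, 5, 4 and 4 in Raf-inactive normoxia libraries. Under hypoxia the numbers were 7, 7, 7 and 7 in Raf-active and 6, 6, 7 and 7 in Raf-inactive libraries. It rose with hypoxia in Raf-inactive cells by 0.45 ± 0.11 (adjusted p = 0.0124), but had 0.04 in the gene body plus 2 kb, and its window reaches 4 other genes. ATRX passed in none of the 4 comparisons, though its change with Raf in hypoxia, −0.17, turned to 0.31 and was called with the 5-fold minimum. TOP1, which relaxes supercoils, was lower with Raf in hypoxia (−0.20, overlapping groups) and with hypoxia in Raf-active cells (−0.35). The second call was lost at matched depth (−0.14) and with the 5-fold minimum (−0.05), while in normoxia TOP1 was called lower with Raf under both (−0.24 and −0.33). TOP2B, its double-strand counterpart, passed in none on the lists as deposited. It was called lower with Raf in hypoxia at matched depth (−0.31), and in normoxia (−0.21) and hypoxia (−0.29) with the 5-fold minimum. BANF1, which bridges DNA at the nuclear envelope, was not tested and had 4 or 5 peaks listed in Raf-active and 2 or 3 in Raf-inactive normoxia libraries. At 0.5% oxygen there were 2 or 3 in Raf-active and 2 in Raf-inactive libraries.

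The 47 loci held 749 of the 241968 merged regions in protein-coding loci. A region was gained or lost where 4 of 4 libraries of the group named first, and 0 of 4 of the other, had a peak, or the reverse. With Raf in normoxia 102 regions were gained (13.6%, against 11.9% in all loci) and 73 lost (9.75%, against 8.44%). In hypoxia 72 were gained (9.61%, against 11.3%) and 57 lost (7.61%, against 6.91%). With hypoxia in Raf-inactive cells 9 were gained (1.20%, against 1.10%) and 6 lost (0.801%, against 1.40%). In Raf-active cells hypoxia gained 14 (1.87%, against 2.80%) and lost 34 (4.54%, against 2.81%). The widest gaps between these loci and all loci were under 2 percentage points. A set of 158 regions (21.1%, against 22.9% in all loci) had a peak in all 16 libraries.

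**Figure D4:**
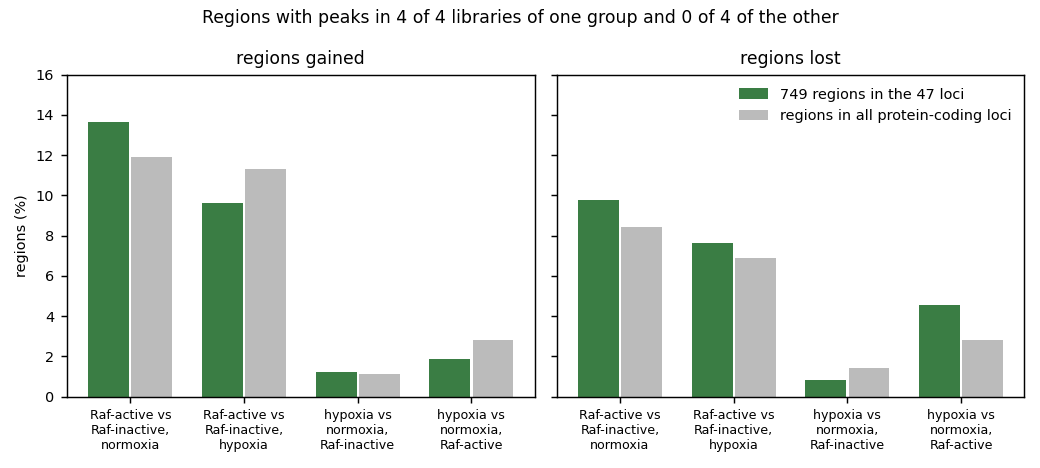
Percent of the 749 regions in the 47 loci (green) and of regions in all protein-coding loci (grey) that were gained or lost in each comparison. The green and grey bars differ by under 2 percentage points throughout, and the losses with hypoxia in Raf-active cells are 4.54% and 2.81%.

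In both Raf comparisons 39 regions were gained (5.21%, against 5.69% in all loci), at 21 members, and 38 lost (5.07%, against 4.25%), at 20 members. At matched depth these numbered 27 and 41. The members' gene bodies held 26 of the gained regions (66.7%) and 34 of the lost ones (89.5%), and 73.4% of all 749. Over all loci, some gene body held 77.4% of regions gained in both, 91.4% of those lost and 82.2% of all. The distances and percentiles that follow are for the lists as deposited. The median distance to the nearer end of the gene was 10.3 kb for gained and 23.6 kb for lost regions, and 6.04 kb for the 158 regions present in all libraries. The gained regions had a median percentile of 42.1 within their lists, against 51.0 for lost regions and 77.1 for the constant ones. Gained regions are ranked in Raf-active lists and lost ones in Raf-inactive lists, which were shorter and less deep, so these ranks do not compare strength. The exon and intron structure was not used here. The highest-ranked region gained within a member was at chr2:96352942-96353417 (hg38), inside NCAPH, with a fold of 11.6 to 15.8 in Raf-active normoxia and 12.5 to 14.7 in Raf-active hypoxia libraries. Others were at chr11:134230305-134230758, in VPS26B beside NCAPD3, and at chr19:5597481-5598201, inside SAFB2. The highest-ranked lost region, at chr4:17846092-17847343, lay in LCORL beside NCAPG, with a fold of 13.9 to 16.5 in Raf-inactive normoxia and 17.0 to 18.7 in Raf-inactive hypoxia libraries. Next were chr3:136671820-136672582 inside STAG1 and chr7:158684107-158685141 inside NCAPG2. The NCAPG2 loss lay next to a gained region at chr7:158683322-158684029 in the same gene.

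**Figure D5:**
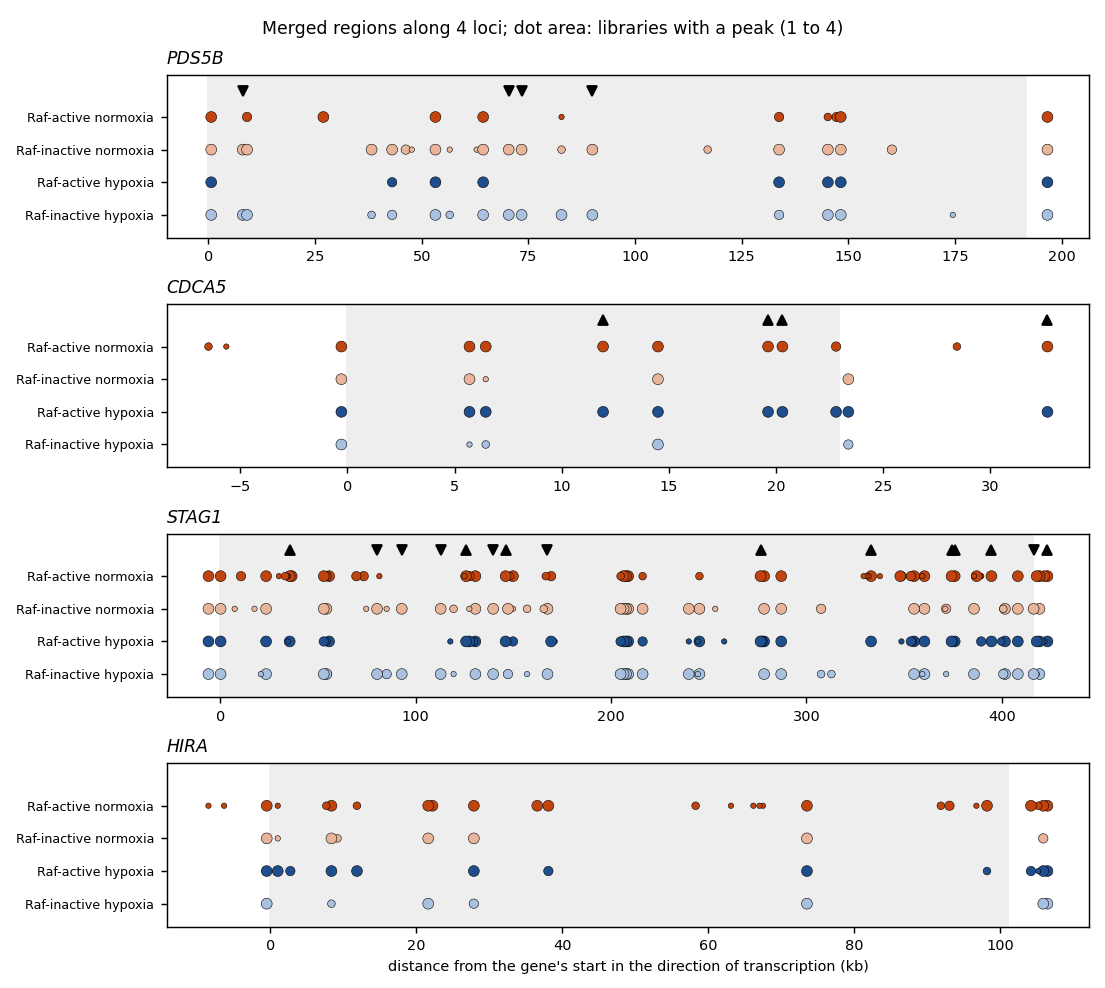
Merged regions along PDS5B, CDCA5, STAG1 and HIRA by distance from the gene's start (kb, gene body shaded), 1 row per group, with dot area for the number of its 4 libraries with a peak; triangles mark regions gained (up) or lost (down) with Raf in both oxygen states. PDS5B shows 4 losses, CDCA5 4 gains, STAG1 9 gains and 6 losses and HIRA none of either, while the dot at the start is in all 4 groups of each gene.

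Related genes outside the 47 moved by shares close to the background. Of 20 tested cohesin, condensin and SMC5/6 partners, 6 were higher (30%) and 5 lower (25%) with Raf in normoxia, and 7 were higher (35%) and 5 lower (25%) in hypoxia. Of 19 other architectural proteins and chaperones, 6 were higher (31.6%) and 5 lower (26.3%) in normoxia, and 6 were higher (31.6%) and 4 lower (21.1%) in hypoxia. Over all loci 37.1% were higher and 25.9% lower in normoxia, and 33.5% and 26.6% in hypoxia. SGO2, or shugoshin 2, which guards centromeric cohesin, fell in normoxia and hypoxia (−1.02 and −0.93). KIF4A, the chromokinesin that works with condensin, fell, with −2.23 in normoxia and −0.48 in hypoxia. The strongest rises were those of SMC1B, the meiotic SMC1, at 1.33 and 1.06. In normoxia LRIF1, a partner of SMCHD1, followed at 1.31 and UBN1, a HIRA partner, at 1.12. In hypoxia the next were H3-3B, which encodes H3.3, at 0.96 and CHAF1B, a subunit of the chaperone CAF-1, at 0.70.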

How the data were processed

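ATAC-seq had been run on 16 libraries, 4 per group. The tools named, per the submitters' processing notes, are MACS2, Bowtie2, bedtools, cutadapt, deepTools, FastQC, Picard and SAMtools, and the build is hg38; versions and settings are not given in the sources used here. The authors deposited 1 narrowPeak list per library, with replicates not pooled. Each deposited line holds a score (a multiple of the −log10 q), the fold enrichment as a ratio over the local background, and the peak caller's −log10 p and its −log10 q. The authors' fold, score and −log10 values depend on depth, and their use was limited to selecting, thinning and ranking peaks inside each library.

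Lines with the same interval counted once, and chromosomes 1 to 22 and X were kept. Loci came from RefSeq on GRCh38.p14, and 31 of the 47 windows reach another gene, so a peak may belong to a neighbour. Scaled peak numbers were taken as log2 of the number plus 1 and fitted in limma 3.58.1 (R 4.3.3) with 4 group means over all 16 libraries, where the mean was 3 peaks or more, with Benjamini-Hochberg adjustment over all 15118. A fold on this scale understates the change of loci with few peaks. For matched depth, the pileup at each summit was worked back from fold and −log10 p, a match within 1% for 89.6% to 98.6% of peaks per library, and thinned to the lowest background. A peak that is absent from a list was not called at that depth. The labels give no batch. The procedure was tested on simulated data. Python 3.11.15 was used for counting.

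The members, lists and tests were chosen with earlier results of these data known. Values per library are given for the called members with the strongest rises and falls whose groups do not overlap (up to 4 each way per Raf comparison, 2 per hypoxia comparison and 2 for the difference), and for CTCF, RAD21, SMC3, HMGB1, HMGB2, SATB1, HIRA and ASF1A. For the difference, the absence of overlap was not required. A related gene counted in its list is not reported here by name. The planned motif search in gained and lost regions was not run, since no genome was used here. Alternatives covered scaling, list length, depth, a 5-fold minimum, base pairs covered, window width, pseudocount, the peak minimum, the libraries fitted, a replicate block and the omission of each library.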

Additional observations from a re-analysis of the deposited data

Results flagged for a closer look

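The Raf change differed between oxygen states (hypoxia minus normoxia) and passed the test of the difference itself at 11 loci. On the log2 scale it was −0.82 at RAD21, −0.67 at HNRNPU, −0.59 at HIRA, −0.58 at HMGN2 and −0.58 at NCAPH2. It was −0.43 at YY1, −0.42 at NCAPD2 and −0.39 at MATR3. It was positive at ESCO2 (0.59), PDS5A (0.52) and SMC6 (0.47). When each of the 16 libraries was left out in turn, the call was lost in 10 cases each at HNRNPU and MATR3, 9 at PDS5A, 8 at SMC6 and 4 at HIRA, and in 0 at RAD21, ESCO2, YY1 and NCAPH2. For HMGN2 and NCAPD2 this was not computed. At matched depth the difference was not called at RAD21, HIRA, NCAPD2, MATR3 and SMC6, and HNRNPU was not tested. Under the 5-fold minimum it was called at PDS5A and not at HIRA, NCAPH2, YY1, NCAPD2, MATR3, ESCO2 and SMC6, and RAD21, HMGN2 and HNRNPU were not tested.

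Single libraries stood apart from the other 3 of their group in 14 of 88 groups looked at, where chance gives about 1 in 20, and whole peak numbers after scaling make such gaps easy to reach. In Raf-active normoxia, replicate 3 had 4.74 scaled peaks at SMC3, 1.90 at ESCO2 and 8.54 at NCAPH2, where the other 3 libraries reached 8.83 to 8.92, 1.76 to 1.78 and 7.06 to 7.13. In Raf-inactive normoxia, replicate 2 had 9.81 at ESCO2, 8.72 at SMC6, 5.45 at SATB1, 2.18 at HNRNPU and 5.45 at ASF1A, and replicate 3 had 5.41 at CDCA5. In Raf-active hypoxia, replicate 2 had 1.90 at ESCO2 and 4.75 at SAFB, and replicate 4 had 2.82 at ASF1A. In Raf-inactive hypoxia, replicate 1 had 5.55 at SAFB and 8.87 at ASF1A.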

How the results depend on the processing

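The members called higher and lower with Raf were 10 and 10 in normoxia and 8 and 15 in hypoxia. Without scaling 20 were higher in normoxia, and with the 5-fold minimum 6 were higher and 16 lower. For hypoxia in Raf-inactive cells (5 higher, 3 lower), 1 was higher with the 5-fold minimum, 8 with base pairs covered and 0 with the gene body plus 2 kb, while 6 were lower with base pairs covered and 1 with only the 8 libraries compared. Over all loci 8.28% were higher with the 5-fold minimum. For hypoxia in Raf-active cells (3 higher, 11 lower), 5 were higher with equal list length, 5 with the 5-fold minimum and 7 with base pairs covered, while 7 were lower at matched depth and 1 with the 5-fold minimum. Over all loci 12.5% were lower at matched depth, and 13.5% were higher and 13.3% lower with the 5-fold minimum. Shares over all loci are not given for equal list length, base pairs covered, the gene body plus 2 kb or the 8 libraries compared. The difference between Raf changes was called at 11 of 39 loci, at 7 of 39 without scaling, 6 of 38 at matched depth and 4 of 33 with the 5-fold minimum. Over all loci, 9.16% were called in each direction on the lists as deposited. Without scaling 9.30% were more positive in hypoxia and 8.82% more negative. These shares were 8.11% and 7.64% at matched depth, and 10.8% and 10.3% with the 5-fold minimum. Leaving out 1 library gave 6 to 12 loci for the difference, 8 to 11 higher and 9 to 10 lower with Raf in normoxia, and 8 and 12 to 15 in hypoxia. For hypoxia it gave 4 to 5 and 2 to 3 in Raf-inactive, and 3 to 4 and 9 to 11 in Raf-active cells. Gained regions with Raf numbered 102 in normoxia, and 165 under 3 of 4 against at most 1 of 4, 25 with the 5-fold minimum, 64 at equal list length and 56 at matched depth. In hypoxia they numbered 72, against 111 and 32 under the first 2 of these. Lost regions stayed within 1.5 times.

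Signs turned with the 5-fold minimum for YY1 (−0.000806 with Raf in hypoxia and −0.11 with hypoxia in Raf-inactive cells), PDS5A (0.71, hypoxia in Raf-active cells), SAFB (−0.41, Raf in normoxia) and HIRA (0.13, hypoxia in Raf-active cells, and 0.18, the difference). MATR3 turned in all 5: −0.29, −0.0667, 0.14, 0.36 and 0.23. With base pairs covered they turned for YY1 (−0.0519, hypoxia in Raf-inactive cells), NCAPH2 (0.17) and HNRNPU (0.18, both Raf in hypoxia) and HIRA (−0.18, hypoxia in Raf-inactive cells). They also turned for PDS5A at equal list length (0.70, hypoxia in Raf-active cells), HMGB1 without scaling (0.25, Raf in hypoxia) and DAXX in the gene body plus 2 kb (−0.13, Raf in normoxia). The cause was not tested.

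Replicate numbers are shared between groups, but libraries of the same number did not deviate together: all 16 correlations lay between −0.04 and 0.01. With the replicate block, 11 were higher and 9 lower with Raf in normoxia, 8 and 14 in hypoxia, 4 and 2 with hypoxia in Raf-inactive cells, 3 and 10 in Raf-active cells, and 9 differed. A peak missing from a list was below the caller's limit at that library's depth, which is no measure of closed chromatin.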
